A study of Rattus norvegicus with 3 samples.

Results

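Axon guidance ligands and receptors were followed across the supernatant RNA of rat spinal cord with laminectomy alone or with contusion. The members were taken by symbol, and are the semaphorins with their plexin and neuropilin receptors, the Eph receptors with the ephrins, the Slits with the Robo receptors, and the netrins with UNC5 and DCC receptors. Of 72 rat genes that carry such a symbol, 33 were among the 12771 entries analysed, 17 of the semaphorin-plexin family, 10 of the Eph-ephrin family, 4 of the netrin family and 2 of the Slit-Robo family. All animals were female rats of the Sprague Dawley strain, aged 3 months, with a laminectomy at T9. The control group had the laminectomy only (No-SCI) and the injured group also had a contusion of the exposed cord (SCI). At 24 h the tissue just rostral to the injury was digested with a cold-active protease, cells were pelleted, and the supernatant was sequenced. The sample labels give 2 No-SCI libraries and 1 SCI library, while the methods of the study state a pair of animals for each condition.

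Guidance cues steer growing axons by attraction and repulsion. Semaphorins signal through plexins, and the secreted class 3 semaphorins need neuropilins as co-receptors. Ephrins are tethered to the membrane, the A type by a lipid anchor and the B type by a transmembrane segment, and signal on contact through Eph receptor tyrosine kinases. Slits repel axons through Robo receptors, and netrins attract through DCC and repel through UNC5 receptors. In the adult cord many of these genes are also used by oligodendrocytes, astrocytes, meninges and vessels, so their RNA is not particular to neurons.

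Each entry holds 1 authors' FPKM value for No-SCI and 1 for SCI. FPKM is a fragment count corrected for the length of the transcript and for the size of the library, so levels of different genes can be set side by side. The log2 ratio used below is that of the SCI value to the No-SCI value, and its median over the 12771 entries was −0.12. With 1 value per group there is no spread between animals and no count, so no SD, n or test can be given and every difference below is a description of these values. A member is counted as higher or lower when the values differ at least 2-fold. No value in the table lies below 1, and whether a constant of 1 was added to every value could not be settled from the sources used here. If it was, the folds of low genes are understated, and with 1 subtracted 7 members would be higher and 13 lower, in place of the 3 and 8 given below. The shares over all entries were not recomputed with 1 subtracted, so these counts have nothing to stand beside.

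The listed guidance genes were mostly lower in SCI, and the families differed in direction. Of the 33 members, 22 had a lower value in SCI and 11 a higher one, beside 7196 and 5575 of all 12771 entries. At least 2-fold lower were 8 members (24.2%), beside 12.1% of all entries. At least 2-fold higher were 3 members (9.09%), beside 7.96% of all entries. The 8 lower genes were SEMA4D, SEMA5B, SEMA7A, SEMA6A, PLXNB1, ROBO2, SEMA6D and SEMA3B, and the 3 higher ones were NTN1, EFNB1 and EFNA2. Summed over the 33 members, the level went from 555 FPKM in No-SCI to 291 FPKM in SCI. SEMA4D made up 43.9% of that sum in No-SCI and 28.9% in SCI, and ROBO2 17.3% and 14.7%.

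**Figure D1:**
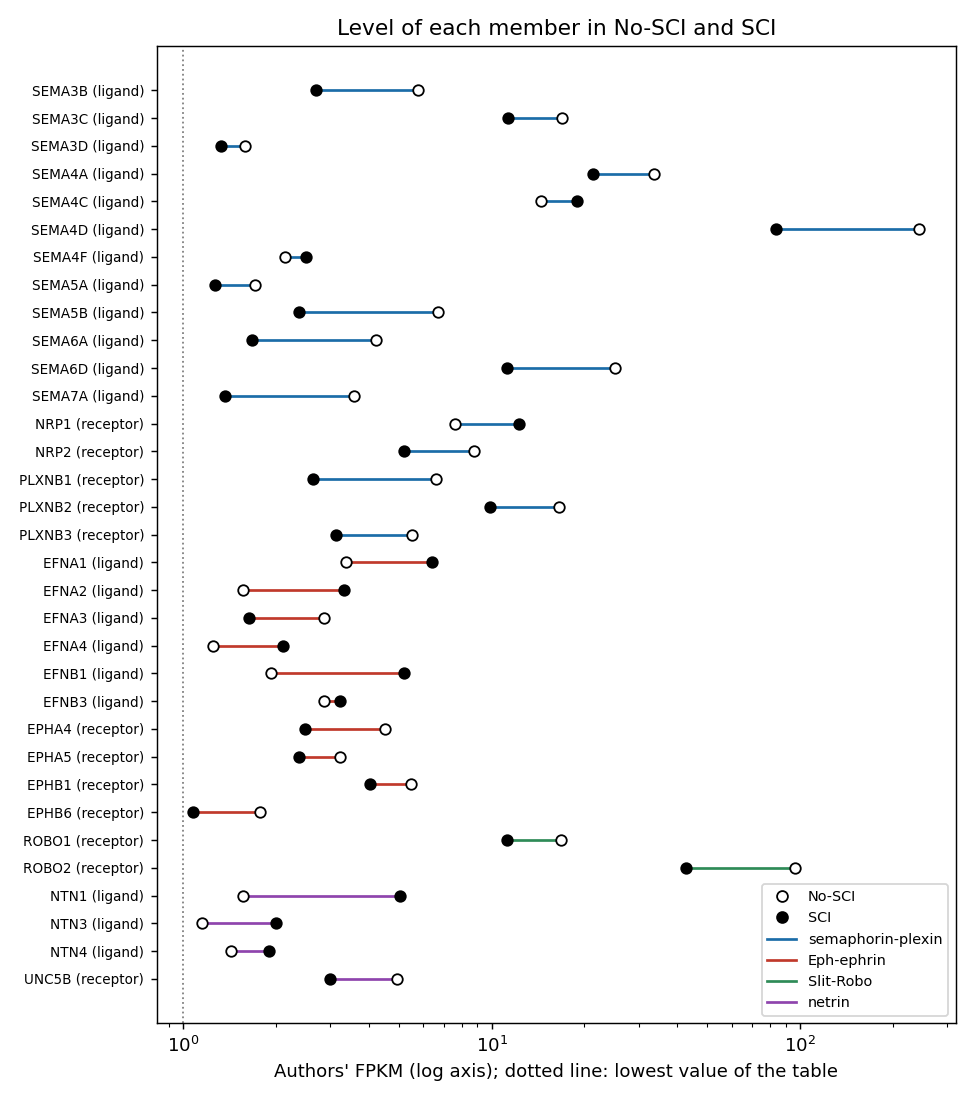
Authors' FPKM of each of the 33 members on a log axis, with open circles for No-SCI, filled circles for SCI, and lines coloured by family. SEMA4D and ROBO2 lie far to the right of the other members in both groups, and most filled circles lie to the left of their open circle except among ephrins and netrins.

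The median log2 ratio was −0.75 in the semaphorin-plexin family, −0.88 in the Slit-Robo family, −0.13 in the Eph-ephrin family and 0.60 in the netrin family. These stand beside −0.12 for all entries and 0.48 for the 713 entries under 2 FPKM in No-SCI, the range that holds the 3 netrins and 3 of the 6 ephrins. In the Eph-ephrin family the 6 ephrins had a median of 0.84 and the 4 Eph receptors one of −0.58. Among the netrins and their receptors the 3 ligands had log2 ratios from 0.40 to 1.69, and the single listed receptor was at −0.72. Semaphorins and their receptors had medians of the same sign, −0.88 and −0.75. Over the families together, 11 of 12 receptors and 11 of 21 ligands had a lower value in SCI. Of all 12771 entries 7196 were lower, so the ligands were near the share of the whole.

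**Figure D2:**
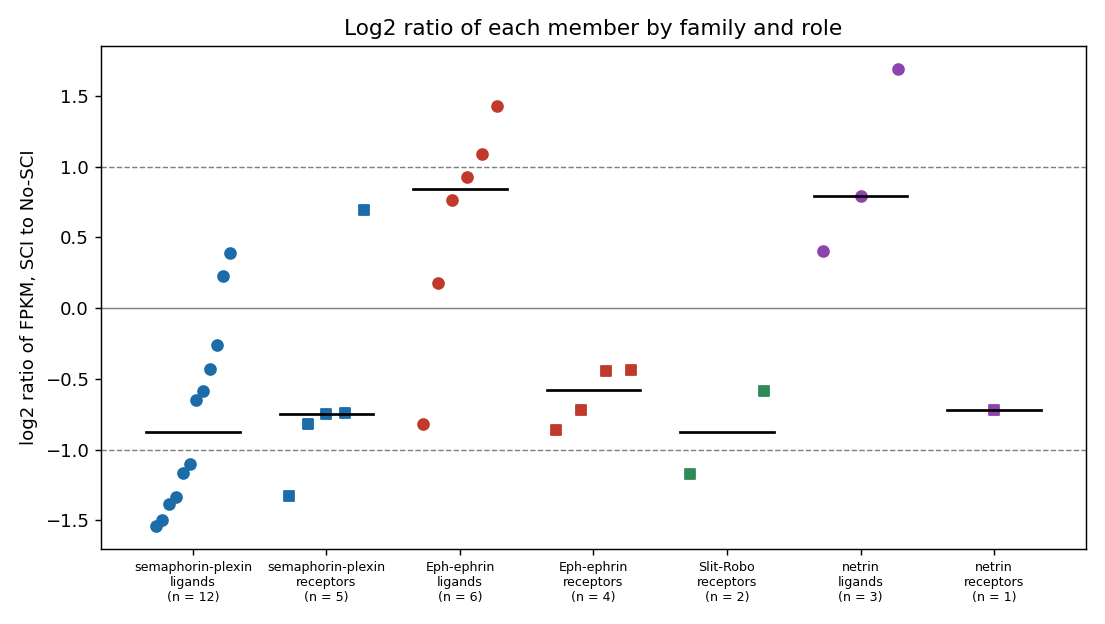
Log2 ratio of FPKM in SCI to No-SCI for each member, by family and role, with circles for ligands, squares for receptors and black bars for the median of a column. Dashed lines mark a 2-fold difference. Ephrins and netrins sit mostly above 0 and their receptors below 0, while semaphorins and plexins sit mostly below 0.

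Low values limit these ratios. With no value under 1, an entry below 2 FPKM in No-SCI could not be counted as 2-fold lower. Such entries numbered 713, of which 26.9% were at least 2-fold higher, and all 3 of the higher members were among the 9 members at that level. Of entries with 8 FPKM or more in No-SCI, 4.62% were at least 2-fold higher and 13.6% at least 2-fold lower, and of the 9 members at that level none was higher and 3 were lower. Between 2 and 8 FPKM, 10.5% of entries were lower and 12.7% higher, and of 15 members 5 were lower and none higher. No entry has both values under 1.41 FPKM, so a gene below that level in one group is listed through its value in the other and had to differ. This holds for 6 members, EFNA4 and NTN3 on the higher side and EPHB6, SEMA3D, SEMA5A and SEMA7A on the lower side. Without these 6 the family medians were −0.78 for semaphorin-plexin, −0.13 for Eph-ephrin and 0.40 for netrin, and that of Slit-Robo has no such member.

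**Figure D3:**
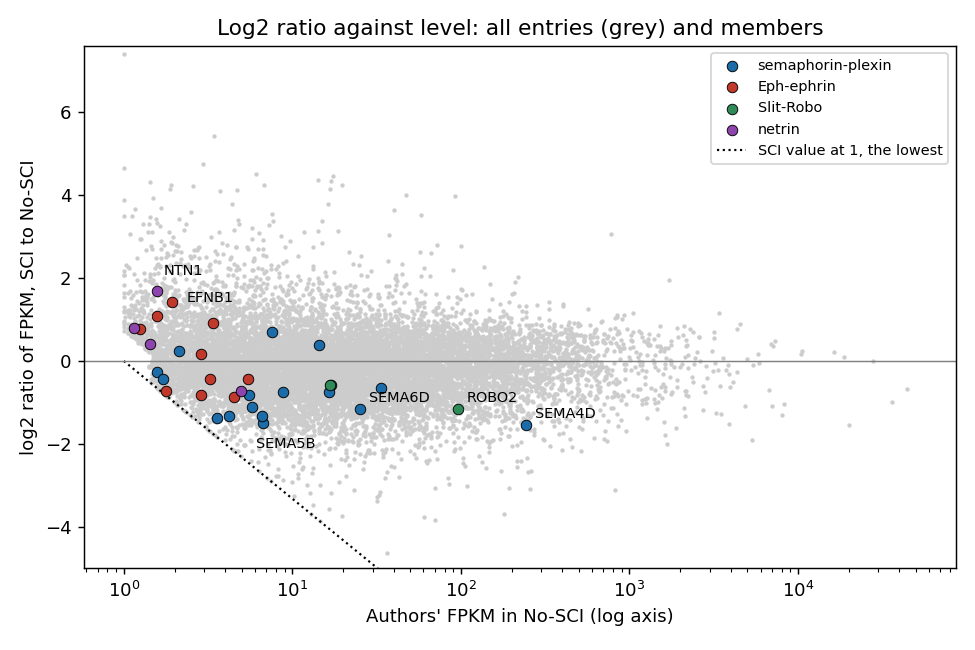
Log2 ratio of SCI to No-SCI against the authors' FPKM in No-SCI on a log axis, with all 12771 entries in grey, members coloured by family, and a dotted line where the SCI value would be 1, the lowest in the table. NTN1 and EFNB1 lie at the low end of the level axis, and SEMA4D and ROBO2 are the lower members with the highest levels.

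Sequence upstream of the gene start is shown for the 2 higher members that have an entry in the RefSeq promoter table, EFNB1 and EFNA2, and for the 2 most abundant lower members that have one, ROBO2 and SEMA6D, so that the regions before genes with opposite ratios can be read beside each other. Each run is the 250 bases before the start in the GRCr8 rat assembly, 5′ to 3′ on the strand of the gene, with capitals for the GC box (GGGCGG, or CCGCCC on the other strand), the CCAAT box (CCAAT, or ATTGG on the other strand) and the TATA motif (TATAAA, or TTTATA on the other strand).
EFNB1, chrX:68297279-68297528, plus strand: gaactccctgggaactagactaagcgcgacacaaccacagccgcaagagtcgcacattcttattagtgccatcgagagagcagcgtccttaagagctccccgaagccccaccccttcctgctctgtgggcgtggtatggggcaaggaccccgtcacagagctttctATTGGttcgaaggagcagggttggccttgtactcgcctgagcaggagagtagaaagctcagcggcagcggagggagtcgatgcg
EFNA2, chr7:10177720-10177969, minus strand: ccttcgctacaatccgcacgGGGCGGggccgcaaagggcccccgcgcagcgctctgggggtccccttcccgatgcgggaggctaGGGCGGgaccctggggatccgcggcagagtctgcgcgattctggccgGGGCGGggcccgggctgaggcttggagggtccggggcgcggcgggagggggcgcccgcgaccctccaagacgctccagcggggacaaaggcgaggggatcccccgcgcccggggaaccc
ROBO2, chr11:26526413-26526662, minus strand: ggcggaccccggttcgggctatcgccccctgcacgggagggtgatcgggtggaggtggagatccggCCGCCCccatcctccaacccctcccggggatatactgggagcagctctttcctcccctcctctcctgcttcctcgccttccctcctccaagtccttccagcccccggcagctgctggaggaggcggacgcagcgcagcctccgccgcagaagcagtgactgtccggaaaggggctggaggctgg
SEMA6D, chr3:132337106-132337355, plus strand: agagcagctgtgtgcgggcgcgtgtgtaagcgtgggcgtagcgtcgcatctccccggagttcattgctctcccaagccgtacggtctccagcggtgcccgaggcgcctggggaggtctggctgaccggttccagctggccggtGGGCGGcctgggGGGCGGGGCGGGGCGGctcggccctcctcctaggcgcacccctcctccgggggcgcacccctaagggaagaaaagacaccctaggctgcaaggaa
EFNB1 has 1 CCAAT box and no GC box in this window, EFNA2 has 3 GC boxes, ROBO2 has 1, and SEMA6D has 4, of which the last 3 overlap by a base each. Their GC content was 58.4%, 77.2%, 69.2% and 70.4%. Of 33 members, 27 matched the table, and the 26 with a single entry were searched. A GC box was found in 12 of these 26 (46.2%), beside 30.5% of all 33469 promoters of that length, and in 4 of 6 lower and 1 of 2 higher members. A CCAAT box was found in 6 of 26 (23.1%), beside 11385 of the 33469, in none of the 6 lower and in 1 of the 2 higher members. The TATA motif was in none of the 26 and in 12.9% of all promoters. The 33469 promoters were not limited to genes with a single entry or to genes among the 12771 entries, so the sets are unlike. These counts describe letters in a window and not binding. The members not matched were EFNB3, EPHA4, NTN1, SEMA3B, SEMA4D and SEMA5A, and ROBO1 was left out of the counts because it has 2 entries.

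Among the semaphorins, class 4 held the most RNA. SEMA4D, a transmembrane semaphorin made by oligodendrocytes and immune cells and known to inhibit axon growth through plexin-B1, had 244 FPKM in No-SCI and 83.9 FPKM in SCI. This is 2.91-fold lower (log2 ratio −1.54), the most negative ratio of the 33 members as deposited, at percentile 3.62 of all entries. With 1 subtracted it was −1.55, and 6 members of lower level had more negative ratios, from −1.57 for EFNA3 to −3.32 for EPHB6. Its level was at percentile 93.4 of all entries in No-SCI and 82.8 in SCI. At least 2-fold lower were 10 of 16 listed oligodendrocyte markers and 7 of 10 astrocyte markers, beside 12.1% of all entries. Of 15 microglia and macrophage markers 3 were lower and 2 higher. The part of any of these cells in the value of SEMA4D was not tested. In bulk RNA fewer cells of a type and less RNA per cell cannot be told apart. SEMA4A, which acts in immune cells and on plexins, had 33.6 and 21.4 FPKM (log2 ratio −0.65). SEMA4C, a ligand of plexin-B2, was the exception among the more abundant semaphorins, with 14.4 FPKM in No-SCI and 18.9 FPKM in SCI (log2 ratio 0.39). SEMA4F was low in both groups, at 2.14 and 2.51 FPKM (log2 ratio 0.23). Class 4 as a whole went from 294 to 127 FPKM, a sum that SEMA4D dominates.

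The class 5, 6 and 7 semaphorins had lower values throughout. SEMA5B had 6.73 FPKM in No-SCI and 2.38 FPKM in SCI (log2 ratio −1.50). SEMA5A, whose thrombospondin repeats bind proteoglycans, had 1.70 and 1.27 FPKM (log2 ratio −0.43). SEMA6D, a ligand and reverse-signalling receptor for plexin-A proteins, had 25.2 and 11.2 FPKM (log2 ratio −1.17). These values put SEMA6D well below SEMA4D but above the other class 5 to 7 semaphorins in both groups. SEMA6A, another plexin-A ligand that oligodendrocytes express, had 4.22 and 1.67 FPKM (log2 ratio −1.34). SEMA7A, which is anchored by a lipid and signals through integrins and plexin-C1, had 3.58 and 1.37 FPKM (log2 ratio −1.39). So 4 of these 5 genes were at least 2-fold lower, of which SEMA7A is listed through its No-SCI value, and SEMA5A, at under 2 FPKM in No-SCI, could not have been. With a pseudocount of 1, SEMA6A (−0.97) and SEMA7A (−0.95) were no longer 2-fold lower.

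The secreted class 3 semaphorins, which collapse growth cones and are made in meningeal scar tissue, were represented by 3 of their 7 genes. SEMA3B had 5.78 FPKM in No-SCI and 2.70 FPKM in SCI (log2 ratio −1.10). SEMA3C, which also guides vessels, had 16.9 and 11.3 FPKM (log2 ratio −0.58), and SEMA3D had 1.58 and 1.32 FPKM (log2 ratio −0.26). All 3 values were lower in SCI, SEMA3B alone reached 2-fold, and SEMA3D is listed through its No-SCI value. Of 18 listed meningeal fibroblast markers 16 were at least 2-fold higher, beside 7.96% of all entries. The part of meningeal cells in the class 3 values was not tested. SEMA3B was no longer 2-fold lower with a pseudocount of 1 (−0.875), with ratios centred on their median (−0.982) or with equal upper quartiles (−0.996). SEMA3A, SEMA3E, SEMA3F and SEMA3G were not analysed here.

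On the receptor side the 3 class B plexins, the receptors of class 4 semaphorins, were lower in SCI. PLXNB1 had 6.59 FPKM in No-SCI and 2.63 FPKM in SCI (log2 ratio −1.33). PLXNB2, the most abundant of the 3, had 16.5 and 9.88 FPKM (log2 ratio −0.74). PLXNB3, a plexin known from oligodendrocytes, had 5.52 and 3.13 FPKM (log2 ratio −0.82). The order of levels among the 3 was PLXNB2, PLXNB1 and PLXNB3 in No-SCI, and PLXNB3 stood above PLXNB1 in SCI. The 2 neuropilins had ratios of opposite sign. NRP1, the co-receptor for SEMA3A that also binds vascular endothelial growth factor, had 7.58 FPKM in No-SCI and 12.3 FPKM in SCI (log2 ratio 0.70). NRP2, preferred by SEMA3F, had 8.75 and 5.22 FPKM (log2 ratio −0.75). NRP2 was thus slightly above NRP1 in No-SCI and well below it in SCI, and neither difference reached 2-fold. The class A, C and D plexins were not analysed here.

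The Eph-ephrin genes were scarce in both groups, from 1.25 to 5.46 FPKM in No-SCI and from 1.08 to 6.38 FPKM in SCI. Of the 6 ephrins 5 were higher in SCI. EFNB1, a transmembrane ephrin, had 1.92 FPKM in No-SCI and 5.19 FPKM in SCI, 2.70-fold higher (log2 ratio 1.43, percentile 96.0 of all entries). EFNA2 had 1.57 and 3.33 FPKM (log2 ratio 1.09). EFNA1, known as a ligand induced by inflammatory signals in endothelium, had 3.36 and 6.38 FPKM (log2 ratio 0.93) and was the most abundant ephrin in both groups. EFNA4 had 1.25 and 2.11 FPKM (log2 ratio 0.76), and EFNB3, a midline repellent for corticospinal axons that is also present in myelin, had 2.85 and 3.23 FPKM (log2 ratio 0.18). EFNA3 differed the other way, with 2.87 FPKM in No-SCI and 1.63 FPKM in SCI (log2 ratio −0.82). EFNB1 and EFNA2 are the ephrins past 2-fold as deposited, and both were below 2 FPKM in No-SCI. EFNA2 was no longer past it with a pseudocount of 1 (0.755). EFNA1 was past it with ratios centred on their median (1.04) or with equal upper quartiles (1.03). With 1 subtracted, EFNA1 (1.19) and EFNA4 (2.18) were past it on the higher side and EFNA3 (−1.57) on the lower side.

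The 4 listed Eph receptors were lower in SCI, by less than 2-fold each as deposited, while with 1 subtracted EPHA4 (−1.24) and EPHB6 (−3.32) were past it. EPHA4, the receptor on corticospinal axons and astrocytes through which ephrin-B3 repels, had 4.51 FPKM in No-SCI and 2.48 FPKM in SCI (log2 ratio −0.86). EPHB1 had 5.46 and 4.02 FPKM (log2 ratio −0.44), and was the most abundant Eph receptor in both groups. EPHA5 had 3.23 and 2.38 FPKM (log2 ratio −0.44). EPHB6, which lacks kinase activity, had 1.78 and 1.08 FPKM (log2 ratio −0.72), the lowest SCI value of the 33 members. The ephrins summed to 13.8 FPKM in No-SCI and 21.9 FPKM in SCI, and the Eph receptors to 15.0 and 9.96 FPKM, so that the order of the sums was opposite in the 2 groups.

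In the Slit-Robo family the values were those of 2 receptors, and the Slit ligands were not analysed here. ROBO2, a Slit receptor of commissural and sensory axons, had 96.1 FPKM in No-SCI and 42.7 FPKM in SCI, 2.25-fold lower (log2 ratio −1.17). It was the second most abundant member in each group, at percentile 84.4 of all entries in No-SCI and 72.0 in SCI. ROBO1 had 16.8 FPKM in No-SCI and 11.2 FPKM in SCI (log2 ratio −0.59). Both receptors were lower in SCI, and ROBO2 stood above ROBO1 in both groups.

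The netrins were among the least abundant members in No-SCI and were higher in SCI. NTN1, the netrin of the floor plate that adult oligodendrocytes and neurons also make, had 1.57 FPKM in No-SCI and 5.06 FPKM in SCI. This is 3.23-fold higher (log2 ratio 1.69), the highest ratio of the 33 members, at percentile 97.4 of all entries. NTN3 had 1.15 and 1.99 FPKM (log2 ratio 0.79). NTN4, a netrin of basement membranes, had 1.43 and 1.89 FPKM (log2 ratio 0.40). All 3 netrins were below 2 FPKM in No-SCI, the range in which a higher value was more frequent over the whole table. UNC5B, a repulsive netrin receptor that is also known from endothelium, had 4.93 FPKM in No-SCI and 2.99 FPKM in SCI (log2 ratio −0.72). DCC and the other UNC5 receptors were not analysed here.

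Levels of known ligand and receptor partners can be set side by side. The level of NTN1 was 0.317 times that of UNC5B in No-SCI and 1.69 times in SCI. EFNB1 stood at 0.352 times the level of EPHB1 in No-SCI and 1.29 times in SCI, EFNA1 at 0.745 and 2.57 times the level of EPHA4, and SEMA4C at 0.873 and 1.92 times the level of PLXNB2. In these 4 pairs the receptor was the more abundant in No-SCI and the ligand in SCI. In the other pairs examined the order was the same in both groups. EFNA1 stood at 1.04 times the level of EPHA5 in No-SCI and at 2.68 times in SCI, EFNA3 at 0.637 and 0.656 times the level of EPHA4, and SEMA4D at 37.0 and 31.9 times the level of PLXNB1. These 7 pairs were chosen after the values were seen and are not all possible partners. Each ratio combines values without an error estimate, so its own error is unknown.

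Further down the pathway the signalling genes as deposited passed 2-fold at shares near or below those of all entries. Of 58 such genes 56 were listed, with a median log2 ratio of −0.26, 4 at least 2-fold lower (7.14%) and 5 at least 2-fold higher (8.93%). The lower count depended on the processing, with 2 under a pseudocount of 1 or centring on the median and 10 with 1 subtracted. The higher count was 4, 6 and 6 in these settings, for which the shares over all entries were not recomputed. The lower ones included DPYSL2 (15.1 and 6.61 FPKM), the collapsin response mediator that carries semaphorin signals to microtubules, and its relative DPYSL5 (3.09 and 1.54 FPKM). They also included SRGAP2 (46.0 and 20.2 FPKM), a GTPase-activating protein that binds Robo, and TIAM1 (6.88 and 3.20 FPKM), an exchange factor for Rac. The higher ones were RHOD (5.55 and 15.8 FPKM) and RRAS (86.9 and 186 FPKM), small GTPases that plexins bind or act on, GSK3B (32.9 and 71.9 FPKM), the kinase that phosphorylates collapsin response mediators, ABL2 (9.61 and 19.5 FPKM), a kinase tied to Robo signalling, and PITPNA (60.8 and 164 FPKM), a lipid transfer protein linked to netrin responses. The most abundant genes of this list were CFL1 with 4116 FPKM in No-SCI and 2881 FPKM in SCI, CDC42 with 1290 and 1877 FPKM, and RHOA with 744 and 651 FPKM, none of them 2-fold apart.

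Other guidance ligands and co-receptors outside the 4 families were mostly lower. Of 27 genes 16 were listed, with a median log2 ratio of −0.50. A lower value in SCI was found for 13 of the 16, beside 7196 of all 12771 entries. At least 2-fold lower were 5 (31.2%), beside 12.1% of all entries. At least 2-fold higher was 1 (6.25%), beside 7.96% of all entries. LRRC4C, the postsynaptic ligand of netrin-G1, had 105 FPKM in No-SCI and 18.3 FPKM in SCI (log2 ratio −2.53). CNTN1 and CNTN2, axonal contactins of the region around the node of Ranvier, had log2 ratios of −2.06 (202 and 48.3 FPKM) and −1.99 (11.9 FPKM in No-SCI). L1CAM, which associates with neuropilin-1, had 5.69 and 2.14 FPKM (log2 ratio −1.41), and TIMD2, a receptor of SEMA4A, had 4.55 and 1.70 FPKM (log2 ratio −1.42). NRCAM, the most abundant gene of the list, had 894 and 466 FPKM (log2 ratio −0.94). The gene past 2-fold on the higher side was FLRT2, a ligand of UNC5 receptors, with 1.66 and 3.83 FPKM, 2.30-fold higher. FLRT2 was below 2 FPKM in No-SCI, the range in which 26.9% of entries were at least 2-fold higher. With a pseudocount of 1, 0 genes of this list were at least 2-fold higher.

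Markers of several cell types also differed between the groups. Oligodendrocyte markers, 16 of 18 listed, summed to 88923 FPKM in No-SCI and 48736 FPKM in SCI, with a median log2 ratio of −1.29, 10 at least 2-fold lower and none higher. MOBP and BCAS1 led them, and MBP and TRF had no entry. Astrocyte markers, 10 of 15 listed, summed to 14348 and 9096 FPKM (median −1.36), with 7 lower and none higher, led by NDRG2, GLUL and AGT, and GFAP, AQP4, SLC1A3, ALDOC and HEPACAM had no entry. Neuronal markers, 19 of 22 listed, summed to 2445 and 2113 FPKM (median −0.60), with 6 lower and none higher, led by GAP43, CELF4 and THY1, and SNAP25, NEFM and CHAT had no entry. Oligodendrocyte precursor markers, 10 of 12 listed, summed to 297 and 199 FPKM (median −0.37), with 3 lower and none higher, led by SOX6, OLIG1 and NEU4, and LHFPL3 and PCDH15 had no entry. Skeletal muscle markers, 13 of 14 listed, summed to 465 and 59.4 FPKM (median −1.92), with 11 lower and none higher, led by TNNT3, MYL1 and ACTA1, and MYH7 had no entry. A pair of the 11 lower muscle markers holds identical values (2.71 FPKM in No-SCI and 1.18 FPKM in SCI) and may be a single estimate. These 5 lists had medians of the same sign as the semaphorins, plexins, Eph receptors and Robo receptors. The median over all entries was negative too (−0.12), and a link of these lists to those genes was not tested. Of all entries 12.1% were at least 2-fold lower and 7.96% at least 2-fold higher.

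Meningeal fibroblast markers, 18 of 20 listed, had the opposite sign and summed to 125 FPKM in No-SCI and 1345 FPKM in SCI (median 2.72), with 16 at least 2-fold higher and none lower. CRABP2, PTGDS and DCN led them, and LAMA1 and TBX18 had no entry. Endothelial markers, 12 of 15 listed, summed to 69.9 and 91.9 FPKM (median 0.12), with 3 higher and 1 lower, led by EGFL7, CLDN5 and ESAM, and PECAM1, TEK and TIE1 had no entry. Microglia and macrophage markers, 15 of 16 listed, summed to 1271 and 1457 FPKM (median 0.30), with 2 higher and 3 lower, led by AIF1, FCER1G and TYROBP, and CTSS had no entry. Mural markers, 11 of 12 listed, summed to 476 and 600 FPKM (median 0.19), with 1 lower and none higher, led by TAGLN, HIGD1B and DES, and NOTCH3 had no entry. Schwann cell markers, 9 of 10 listed, summed to 165 and 174 FPKM (median 0.37), with 3 in each direction, led by PMP22, DRP2 and MAL, and CDH19 had no entry. The part of any of these lists in the values of the guidance genes was not tested.

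**Figure D4:**
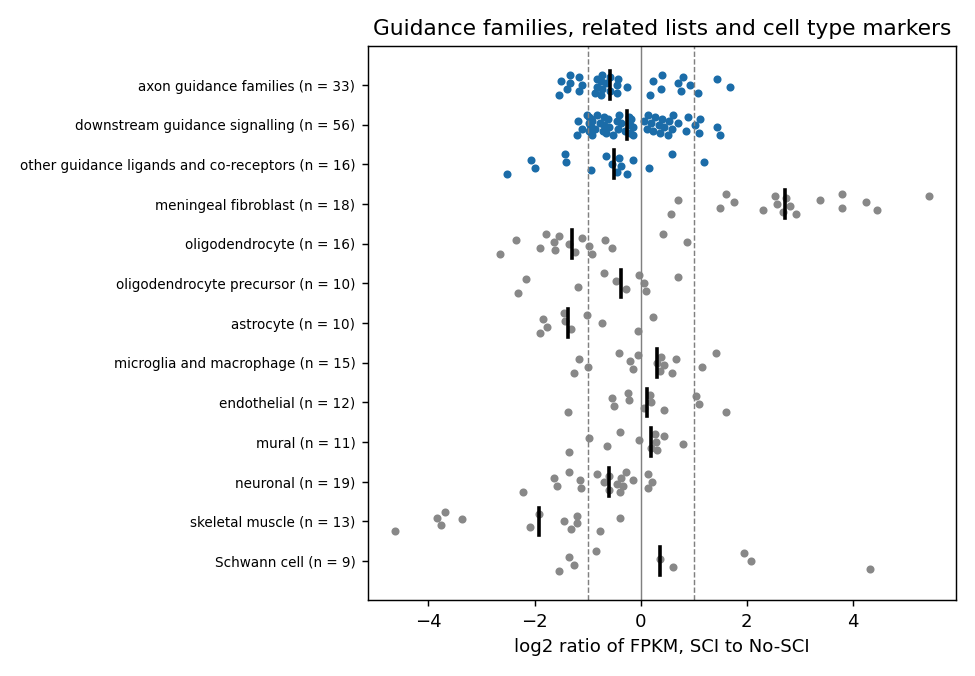
Log2 ratio of SCI to No-SCI for the 33 members, the 2 lists of related guidance genes (blue) and the marker lists (grey), 1 point per listed gene, with black bars for medians and dashed lines for a 2-fold difference. The members spread on both sides of 0 with their median at −0.59, oligodendrocyte and astrocyte markers lie further to the left, and meningeal fibroblast markers lie to the right.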

How the data were processed

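The labels' 3 libraries fall into No-SCI (2) and SCI (1). According to the methods of the study, ribosomal RNA was removed, stranded total RNA libraries were made, reads were downsampled to the smallest library and aligned to rn6. The submitters' processing notes name STAR 2.5.4b and Cuffdiff 1.3.0, and the authors' deposited FPKM values, with upper quartile normalization, are 1 estimate per group. The authors' fold changes, log2 values, p-values, q-values and significance calls were not used. The methods name a target number of reads, but the table holds no counts, so the depth behind a value was not computed, and 0 value columns lacked a group.

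Members were matched by symbol, all 33 to a RefSeq symbol of GRCr8, and each is named with both values. Members and the 12 gene lists were chosen with earlier results of these data known. Of 12758 symbols, 13 are listed 2 times, and lists use the entry with the larger mean. From the 2 guidance lists, genes past 2-fold and the 3 most abundant were named, and from marker lists the 3 most abundant by mean level and those with no entry, except 1 marker that is not reported here. Log2 ratios were taken without a pseudocount, and counts use a 2-fold minimum over all entries. Ratio and counting steps were tested on simulated data. In 28 of 33 members (58.6% of all entries) a value has over 6 digits, so it may combine several estimates. Python 3.11.15, numpy 2.4.6, pandas 2.3.3 and matplotlib 3.10.9 were used.

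Values were recomputed with 1 or 0.1 FPKM added, with log2 ratios centred on their median, with totals or upper quartiles made equal, with fold minimums of 1.5 and 3, with a mean of at least 5 FPKM, with means for medians, with members at the lowest value or UNC5CL left out, and with repeated entries summed. Subtracting 1 from every value, since none lies below 1, and leaving out the 6 members listed through one group were added after the data were seen.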

Additional observations from a re-analysis of the deposited data

How the results depend on the processing

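No single member changed the sign of its log2 ratio in 198 recomputed values under the pseudocounts, the scalings and the subtraction of 1. None could have, so this is no evidence of stability. Adding or subtracting the same amount keeps the order of the values. The scalings raised every ratio by at most 0.12, and the negative ratio nearest 0 was −0.26, for SEMA3D. The limits are those of 1 value per group, no value below 1 and no counts. No spread exists to judge a move by, so a family or list median was counted as moved past 0.1 on the log2 scale and a count past 1.5 times. Of 216 recomputed medians and counts of the 12 gene lists, 42 moved. No paired analysis was possible because the table has 1 value per group and the labels share no replicate number, and leaving out a library could not be done for the same reason.

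Centring moved every log2 ratio by 0.12 and equal upper quartiles by 0.10. The medians were then −0.013 and −0.027 for Eph-ephrin, −0.76 and −0.78 for Slit-Robo, 0.71 and 0.70 for netrin, and −0.63 and −0.64 for semaphorin-plexin. A mean in place of the median gave Eph-ephrin 0.11, a change of sign. With a pseudocount of 1 the netrin median was 0.36 and 5 members were lower, and centring or equal upper quartiles gave 4 higher and 7 lower. Without the 6 members listed through one group, left out after seeing the data, the netrin median was 0.40. With 1 subtracted, an alternative chosen after seeing the data, the netrin median was 1.88 and that of semaphorin-plexin −1.08, with 7 members higher and 13 lower. A fold minimum of 1.5 gave 7 higher and 17 lower, and one of 3 gave 1 higher and 0 lower. With a mean of at least 5 FPKM, 0 members were higher and 3 lower, and no Eph-ephrin or netrin member was left. The shares of all entries past the fold were not recomputed in any of these settings, so the counts describe the members alone. No member was at the lowest value, listed more than once or UNC5CL, so those alternatives changed no family median.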
